A study of Rattus norvegicus with 6 samples.

Results

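The 46 genes described here encode liver collagens, basement membrane proteins, matrix glycoproteins and small proteoglycans, the enzymes that cross-link or cut the matrix, and markers and growth factors of hepatic stellate cells. They were chosen by symbol, and a gene was counted as measured when the RefSeq accession of a non-control array probe mapped to its symbol. Of the 46, 37 had at least 1 of 67 matched probes, among 15284 genes named on the array. No probe was matched to 9 of them (Col4a2, Col5a2, Col6a1, Col6a3, Col15a1, Lamb1, Nid1, Hspg2 and Lox). The probes of Lum, Mmp9 and Postn were well above background on 0 of 6 arrays, and that of Thy1 was so on 1 NTA array and on no vehicle array. The remaining 33 were well above background on all 6 arrays and were tested.

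Total liver RNA of 6 male Sprague-Dawley (Crl:CD(SD)) rats, bought at 5 weeks of age, was hybridised to single-colour Agilent arrays, with 1 array per rat. In the NTA group, 3 rats received nitrilotriacetic acid trisodium monohydrate, a chelator of metal ions, at 1000 mg/kg/day. In the vehicle group, 3 rats received the vehicle alone. The labels conflict on what that was, naming purified water in one field and corn oil in another, and on the duration, given as 28 days and as 9 weeks. Neither conflict was settled here, and of the 10 chemicals in the series title NTA alone was analysed.

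In healthy liver the sinusoids lack a continuous basement membrane, and a sparse matrix fills the space between endothelium and hepatocytes. Stellate cells lie in that space, store vitamin A and, when activated, become myofibroblasts that contain smooth muscle actin and secrete fibrillar collagen. Matrix is then stiffened by lysyl oxidases, cut by metalloproteinases and heparanase, and protected by TIMPs, the inhibitors of metalloproteinases.

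Expression values are log2 processed signals with the same array's 75th percentile set to 0, so 0 is the signal below which 75% of the probes lie. A gene with several probes is represented by the brightest. Each difference is NTA minus vehicle, in log2 units, tested in limma over 30352 features (11251 named genes and 19101 unnamed probes) with Benjamini-Hochberg adjustment. The share of probes well above background was 62.4% to 64.5% per array. The hepatocyte products albumin and transferrin were well above background on all arrays. All NTA arrays, and no vehicle array, came from 1 slide, so treatment and slide cannot be told apart. Vehicle rat 3 had a slide and a scan day of its own, with a median local background of 40 against 54 to 61 on the other arrays. In bulk liver RNA, fewer cells of a type and less RNA per cell cannot be told apart.

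None of the 33 tested genes passed the test at an adjusted p under 0.05, and their limma Benjamini-Hochberg adjusted p ran from 0.255 to 0.995. In the same fit 9 features passed, 0.0297% of all. At an unadjusted p under 0.05 there were 5 of the 33 genes, against 7.57% of all features. Of these, Hpse, Loxl2 and Pdgfra had positive differences (3.66% of all features) and Mmp14 and Loxl1 negative ones (3.91% of all features). The groups did not overlap for 5 genes, Hpse, Loxl2, Pdgfra, Timp1 and Bgn, against 13.6% of all features, and in all 5 the NTA values were the higher ones (5.57% of all features). No gene had all NTA values below all vehicle values, an order found in 8.03% of all features. These orders are those of the brightest probe of each gene, and dimmer probes of some genes differed, as given below. The median difference was 0.0072 over the 33 genes, with 17 above 0 and 16 below, and −0.027 over all features.

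**Figure D1:**
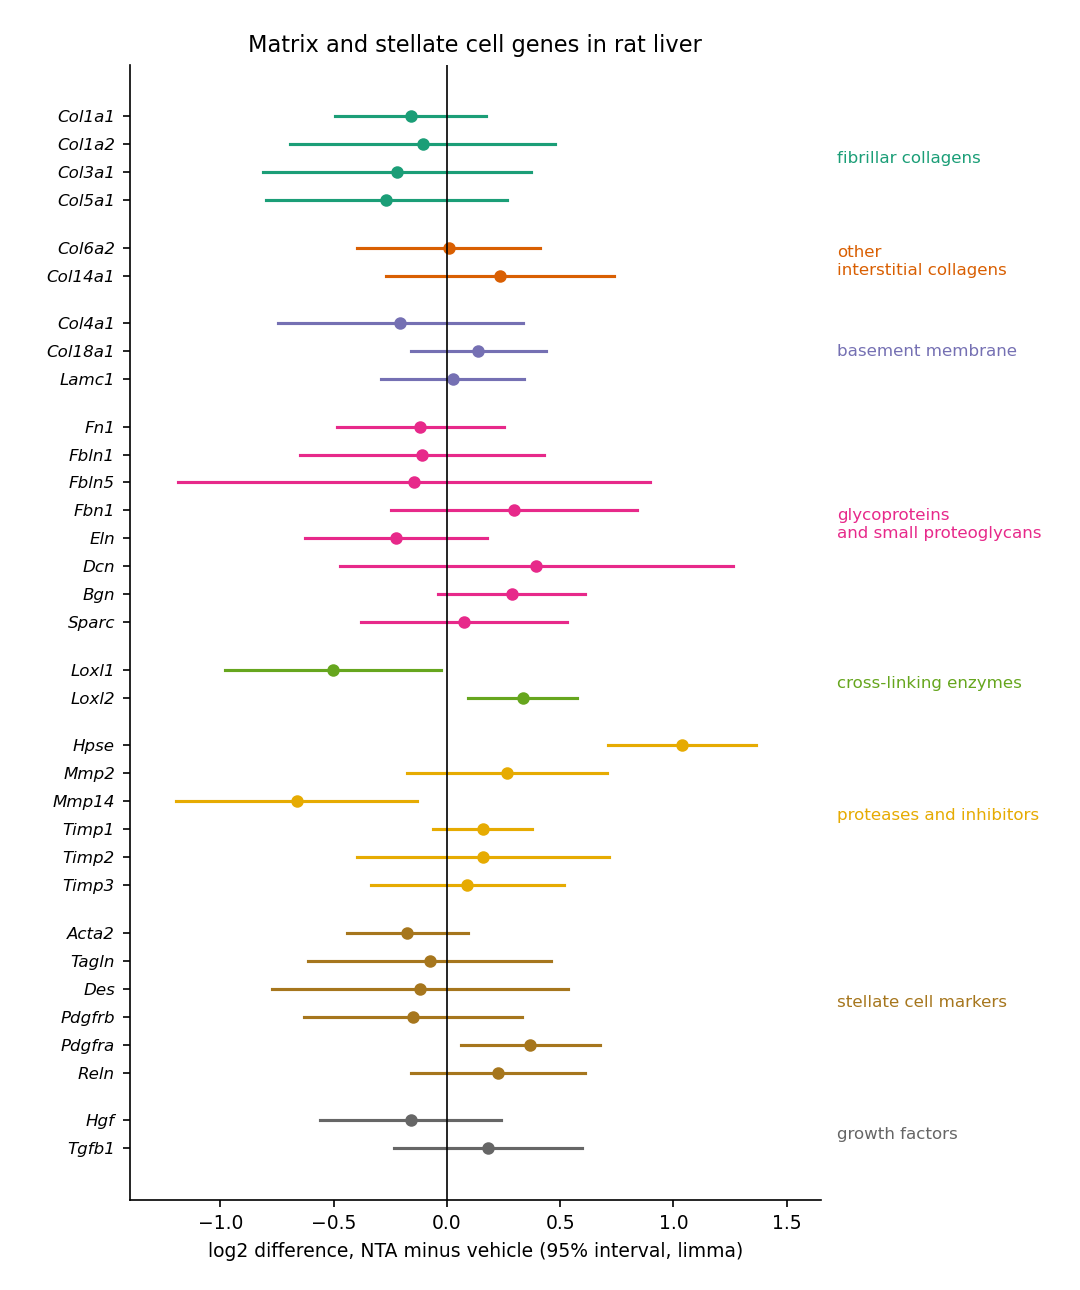
Log2 difference in liver signal, NTA minus vehicle (x axis), for the 33 tested matrix and stellate cell genes grouped by role (y axis). Points are the limma estimates and bars their 95% intervals, with 3 rats per group. Hpse lies farthest right at 1.04, Mmp14 farthest left at −0.66, and most intervals span 0.

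Heparanase (Hpse), the enzyme that cuts the heparan sulfate chains of basement membrane and cell surface proteoglycans, had the largest difference of the 33. Its signal was 1.17, 1.19 and 1.03 in NTA rats 1, 2 and 3, against −0.031, 0.33 and −0.024 in vehicle rats 1, 2 and 3. Each NTA rat exceeded each vehicle rat, and the gap between the groups was wider than the spread within either. The means were 1.13 ± 0.085 with NTA and 0.092 ± 0.21 with vehicle (SD, n = 3 each). The difference was 1.04 (SE 0.14, 95% interval 0.71 to 1.37), or 2.05-fold. It did not pass the adjusted threshold (limma, Benjamini-Hochberg adjusted p = 0.255), although its unadjusted p of 1.7e-04 was the 11th smallest of the 11251 named genes. A difference of at least 1 in either direction was found in 1.27% of all features and in 1 of the 33 genes. The second Hpse probe had the same order, with −1.32, −0.78 and −0.91 in the NTA rats and −2.35, −1.87 and −2.39 in the vehicle rats. Its difference was 1.20 (SE 0.20). Among the 5 arrays of the first scan day, which leaves out vehicle rat 3, the difference of the brighter probe was 0.98.

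Promoter stretches are shown for Hpse, Loxl1 and Pdgfra, the genes at an unadjusted p under 0.05 that the RefSeq promoter table holds, and for the shared start region of Col4a1 and Col4a2. Each of the first 3 gives the 250 bases before the annotated start, from the RefSeq table of build GRCr8, at chr14:9200721-9200970 on the plus strand for Hpse, chr8:67612225-67612474 on the minus strand for Loxl1 and chr14:33408517-33408766 on the minus strand for Pdgfra. Capitals mark matches on either strand to the GC box GGGCGG, the CCAAT box CCAAT or the TATA box TATAAA, and no matches overlapped.
Hpse: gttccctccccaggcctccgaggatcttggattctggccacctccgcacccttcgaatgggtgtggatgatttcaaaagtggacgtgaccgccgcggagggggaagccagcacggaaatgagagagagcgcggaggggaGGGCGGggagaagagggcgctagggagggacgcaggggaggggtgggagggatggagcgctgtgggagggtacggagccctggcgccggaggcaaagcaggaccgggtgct
Loxl1: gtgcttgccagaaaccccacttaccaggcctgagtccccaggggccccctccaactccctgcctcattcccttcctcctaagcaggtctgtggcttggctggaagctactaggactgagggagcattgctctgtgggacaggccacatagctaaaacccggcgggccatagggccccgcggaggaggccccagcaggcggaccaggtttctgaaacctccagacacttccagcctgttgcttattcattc
Pdgfra: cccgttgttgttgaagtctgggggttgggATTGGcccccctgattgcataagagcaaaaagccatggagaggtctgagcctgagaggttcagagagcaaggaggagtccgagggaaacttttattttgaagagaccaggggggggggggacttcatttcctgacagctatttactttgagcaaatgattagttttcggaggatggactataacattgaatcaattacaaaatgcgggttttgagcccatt
The Hpse stretch is 66.8% G and C and holds 1 GC box, 111 to 106 bases before the start. The Loxl1 stretch, 60.4% G and C, holds none of these letters. The Pdgfra stretch, 47.2% G and C, holds 1 CCAAT box, read on the opposite strand, 221 to 217 bases before the start. Of 33469 promoters of that length in the table, 30.5% hold the GC box, 34.0% the CCAAT box and 12.9% the TATA box. A match describes the letters in the window and not the binding of a factor.

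Among the proteases, Mmp14, the membrane-bound metalloproteinase that activates the proenzyme of Mmp2, had the most negative difference of the 33 genes. Its signal was 4.75, 4.27 and 4.36 in NTA rats 1, 2 and 3, against 5.18, 5.46 and 4.73 in vehicle rats 1, 2 and 3. The groups overlapped, since NTA rat 1 lay just above vehicle rat 3. The difference was −0.66 (SE 0.22; limma, Benjamini-Hochberg adjusted p = 0.580), and the second Mmp14 probe gave −0.54 (SE 0.21). With 1 array left out, the difference of the brighter Mmp14 probe ran from −0.86, on the first scan day alone, to −0.49. Mmp2, a secreted gelatinase, was at 1.41, 1.73 and 1.13 in the NTA rats and at 1.36, 1.00 and 1.11 in the vehicle rats. These ranges overlapped, with NTA rat 2 the highest, and the difference was 0.27 (SE 0.18).

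Timp1, the TIMP that is known to be induced in injured liver, had an unusually narrow spread. It was at 1.59, 1.61 and 1.61 in the NTA rats and at 1.44, 1.44 and 1.44 in the vehicle rats. The groups did not overlap, but the difference was only 0.16, or 1.12-fold (SE 0.091; limma, Benjamini-Hochberg adjusted p = 0.743). Timp2 and Timp3 had differences of 0.16 and 0.091. The group of proteases and inhibitors, in which heparanase (Hpse) was also counted, had 6 tested genes of 7 listed, 0 past the test, and a median difference of 0.16.

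The lysyl oxidases, which cross-link collagen and elastin, pointed in opposite directions. Loxl1, the family member tied to elastic fibres, was at −1.02, −0.59 and −1.18 in NTA rats 1, 2 and 3, against −0.15, −0.54 and −0.60 in vehicle rats 1, 2 and 3. Only NTA rat 2 reached the vehicle range, just above vehicle rat 3. The difference was −0.50 (SE 0.20; limma, Benjamini-Hochberg adjusted p = 0.635), and a second probe gave −0.43. Loxl2, which cross-links type IV collagen among other substrates, was at −0.065, −0.084 and −0.17 in the NTA rats and at −0.36, −0.49 and −0.48 in the vehicle rats. These groups did not overlap, and the difference was 0.34 (SE 0.10; limma, Benjamini-Hochberg adjusted p = 0.541). On the first scan day alone Loxl1 was at −0.59 and Loxl2 at 0.31. The difference between the 2 genes' responses was not tested.

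**Figure D2:**
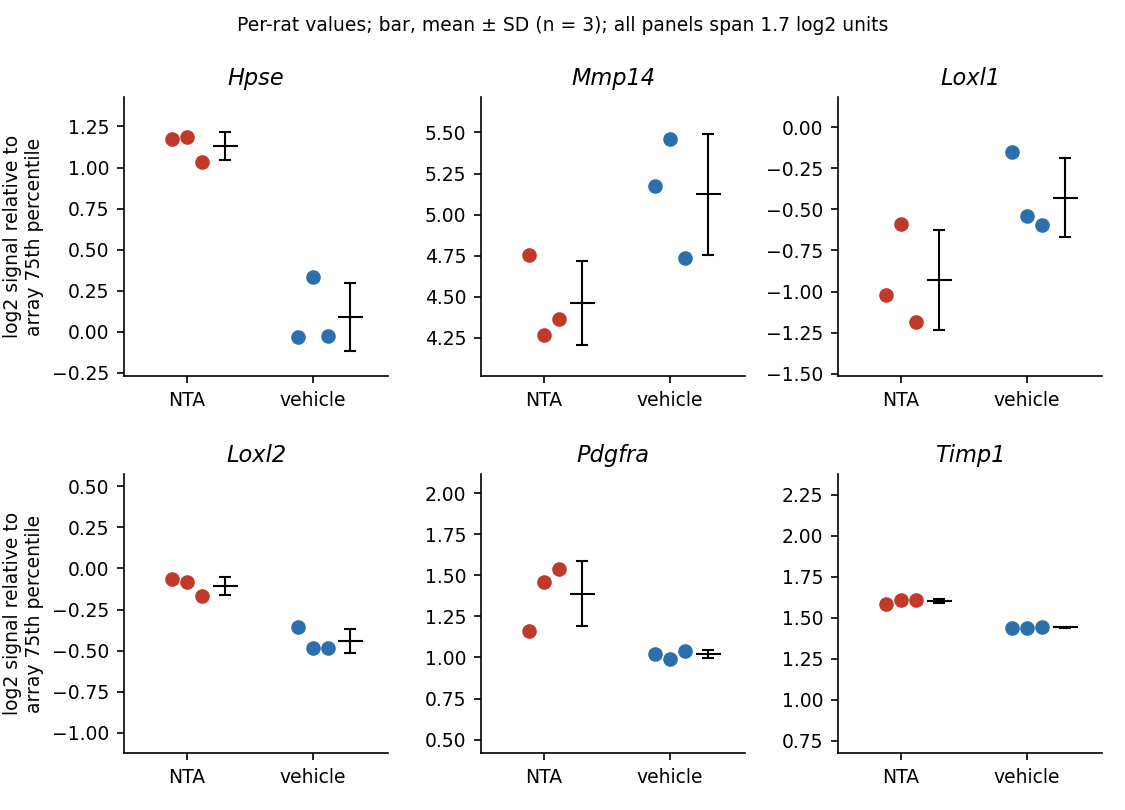
Log2 signal, with 0 at the array's 75th percentile (y axis), in each NTA rat (red) and each vehicle rat (blue), with bars for mean ± SD (n = 3 per group), for Hpse, Mmp14, Loxl1, Loxl2, Pdgfra and Timp1. Every panel spans the same number of log2 units, so the 1.04 difference of means of Hpse can be set against the 0.16 of Timp1.

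The fibrillar collagens, the main product of activated stellate cells, had 4 tested genes of 5 listed, and none passed the test. All 4 differences lay below 0, with a median of −0.19. Col1a1, a chain of type I collagen, was at 0.19, 0.13 and −0.15 in NTA rats 1, 2 and 3, against 0.26, 0.33 and 0.060 in vehicle rats 1, 2 and 3. The groups overlapped and the difference was −0.16 (SE 0.14; limma, Benjamini-Hochberg adjusted p = 0.827), while its other probes gave 0.14 and 0.051. Col1a2, the partner chain, had a difference of −0.11. Col3a1, the chain of type III collagen, was at 3.60, 4.43 and 3.59 in the NTA rats and at 4.23, 4.12 and 3.94 in the vehicle rats. NTA rats 1 and 3 lay below every vehicle rat and NTA rat 2 above every one, and the difference was −0.22 (SE 0.25; limma, Benjamini-Hochberg adjusted p = 0.864). Col5a1, of the type V collagen that starts fibrils, had the same order, at −0.34, 0.46 and −0.27 in the NTA rats and at 0.18, 0.17 and 0.30 in the vehicle rats. Its difference was −0.27 (SE 0.22; limma, Benjamini-Hochberg adjusted p = 0.817).

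NTA rat 2 stood apart from the other NTA rats in these collagens. It had the highest of the 6 values for Col1a2, Col3a1 and Col5a1, and for 14 of the 33 genes (42.4%), against 15.6% of all features. Without NTA rat 2 the differences of Col1a2, Col3a1 and Col5a1 were −0.39, −0.50 and −0.52, still with 0 genes past the test and with limma Benjamini-Hochberg adjusted p of 0.734, 0.721 and 0.685. Because that rat held the highest value for each of them, leaving it out had to make these differences more negative. Without that rat, 8 of the 33 genes had an unadjusted p under 0.05, against 6.39% of all features in that fit. They were those collagens, Fbln5, Dcn, Loxl1, Loxl2 and Hpse. Fbln5 was also highest in NTA rat 2, so that count follows in part from the choice of rat. The count was 2, Hpse and Loxl2, without vehicle rat 1 or without vehicle rat 2, against 8.45% and 6.75% of all features.

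Of 4 tested genes listed as markers of mesothelium, the cell layer of the liver capsule, Gpm6a and Msln had a similar order among the NTA rats. Podxl and Krt8 did not. Whether each of the 4 reports mesothelium in bulk liver RNA was not tested. Gpm6a, a surface glycoprotein of these cells, was at −5.98, −0.70 and −1.47 in NTA rats 1, 2 and 3, against −0.14, −0.10 and 0.17 in vehicle rats 1, 2 and 3. Msln (mesothelin) was at −3.91, −1.15 and −3.63 in the NTA rats and at −1.22, −1.69 and −1.46 in the vehicle rats. For both genes NTA rats 1 and 3 were the lowest of the 6, and neither passed the test (limma, Benjamini-Hochberg adjusted p = 0.692 and 0.695). The −5.98 of Gpm6a was near background. It lies within −6.27 to −5.53, the NTA values of a dim Fbln1 probe that was well above background on 0 NTA arrays. Podxl, with a difference of 0.17, and Krt8, with −0.10, were highest among the NTA rats in rat 3. Of the 6 listed mesothelial markers, Wt1 was not well above background. The 4 markers' summed linear signal, in units of the array's 75th percentile, was 5.96 to 7.91 in NTA rats and 7.62 to 9.56 in vehicle rats. Krt8 was the brightest of the 4, at 2.25, 2.47 and 2.54 in the NTA rats and at 2.85, 2.51 and 2.22 in the vehicle rats. The sum is therefore mostly Krt8 and says little of Gpm6a and Msln. The part of the 4 markers in the collagen values was not tested.

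**Figure D3:**
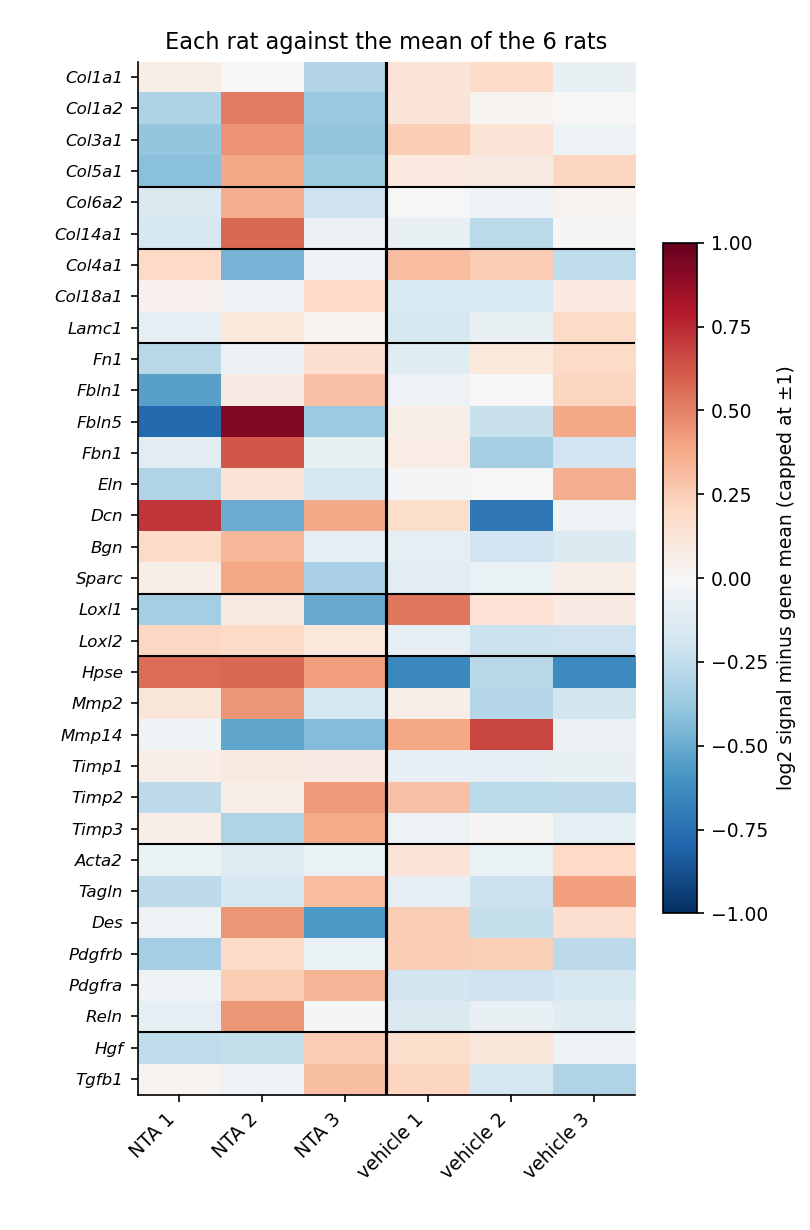
Log2 signal of the 33 tested genes (rows, in role groups) in each of the 6 rats (columns, NTA left, vehicle right), as the deviation from the mean of the 6 rats. Red is above the mean and blue below, with the scale capped at 1 log2 unit. The column of NTA rat 2 is the reddest for Col1a2, Col3a1 and Col5a1, where NTA rats 1 and 3 are blue.

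Among the other interstitial collagens, 2 of 4 listed genes were tested and none passed. Col14a1, a collagen that sits on the surface of fibrils, was at 2.96, 3.70 and 3.07 in NTA rats 1, 2 and 3, against 3.05, 2.86 and 3.12 in vehicle rats 1, 2 and 3. Only NTA rat 2 lay outside the vehicle range, and the difference was 0.24 (SE 0.21; limma, Benjamini-Hochberg adjusted p = 0.832). Another 3 probes gave 0.18, 0.12 and 0.20. Col6a2, a chain of the beaded filaments of type VI collagen, was at 2.20, 2.71 and 2.14 in the NTA rats and at 2.35, 2.29 and 2.38 in the vehicle rats. Its difference was 0.0072 (SE 0.17), and again NTA rat 2 was the highest.

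For the basement membrane, 3 of 8 listed genes were tested and none passed, but the probes of Col4a1, a chain of the type IV collagen network, did not give 1 answer. Its brightest probe, A_44_P1070510, was at 3.33, 2.66 and 3.09 in NTA rats 1, 2 and 3, against 3.44, 3.38 and 2.88 in vehicle rats 1, 2 and 3. These groups overlapped, with a difference of −0.21 (SE 0.23; limma, Benjamini-Hochberg adjusted p = 0.863). The other 3 probes carry the same accession, and in each of them the lowest NTA rat lay above the highest vehicle rat. Probe A_64_P149501 averaged 2.78 ± 0.21 with NTA and 2.11 ± 0.23 with vehicle (SD, n = 3 each), a difference of 0.67 (SE 0.17). Probe A_44_P1021644 averaged 1.24 ± 0.27 with NTA and 0.63 ± 0.064 with vehicle (SD, n = 3 each), a difference of 0.61 (SE 0.16). Probe A_64_P293606 averaged −2.72 ± 0.086 with NTA and −3.28 ± 0.16 with vehicle (SD, n = 3 each), a difference of 0.57 (SE 0.12). Their adjusted p in a limma fit over 38167 single probes, a fit added after the data were seen, was 0.526, 0.526 and 0.488 after Benjamini-Hochberg adjustment. With the mean of its 4 probes Col4a1 had a difference of 0.41 (SE 0.10; limma, Benjamini-Hochberg adjusted p = 0.508). The sign of the Col4a1 difference therefore depends on the probe, and the cause was not tested.

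**Figure D4:**
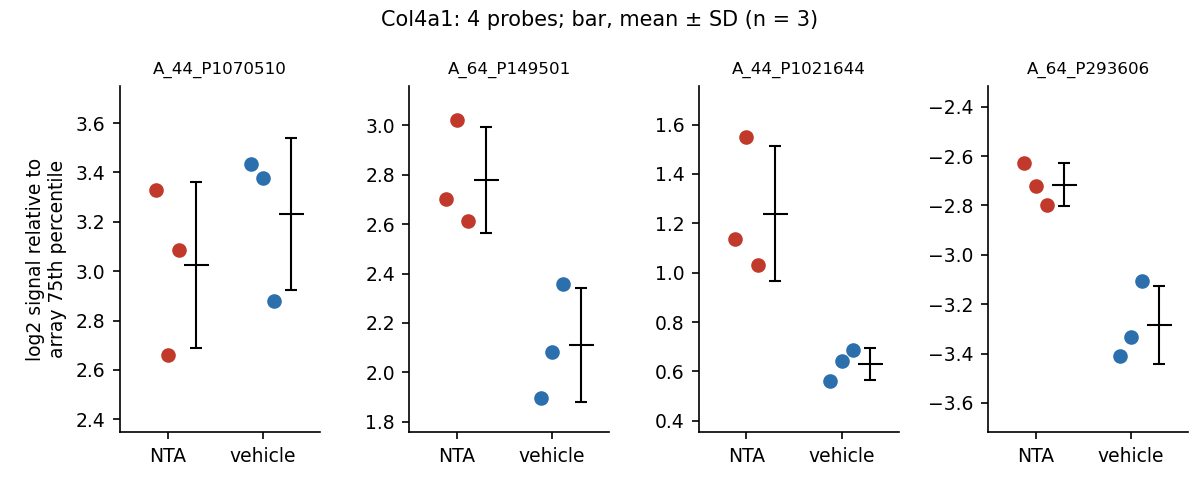
Log2 signal, with 0 at the array's 75th percentile (y axis), for the 4 Col4a1 probes in each NTA rat (red) and vehicle rat (blue), with bars for mean ± SD (n = 3 per group). The brightest probe, at the left, has overlapping groups, and in the other 3 the NTA rats lie above the vehicle rats.

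Col4a1 and Col4a2 start head to head, and no probe was matched to Col4a2, so the pair could not be compared. The 76 bases between their annotated starts in RefSeq build GRCr8, at chr16:84885521-84885596 on the plus strand, are 78.9% G and C and hold 1 GC box, in capitals, read on the opposite strand.
Col4a1 and Col4a2: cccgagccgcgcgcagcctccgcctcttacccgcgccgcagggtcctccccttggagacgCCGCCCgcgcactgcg
The other basement membrane genes had smaller differences. Col18a1, whose protein is the source of endostatin, was at 4.96, 4.89 and 5.12 in NTA rats 1, 2 and 3, against 4.77, 4.77 and 5.02 in vehicle rats 1, 2 and 3. The overlap came from vehicle rat 3, and the difference was 0.14 (SE 0.12; limma, Benjamini-Hochberg adjusted p = 0.834). A second Col18a1 probe had all NTA rats above all vehicle rats, at 0.21 (SE 0.11). Lamc1, a laminin chain, had a difference of 0.026, with other probes at −0.051 and −0.23.

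Of the 10 glycoproteins, elastic fibre proteins and small proteoglycans, 8 were tested and none passed, with a median difference of −0.018. Biglycan (Bgn), a small proteoglycan that binds collagen and TGF-beta, was at 6.50, 6.64 and 6.22 in NTA rats 1, 2 and 3, against 6.21, 6.12 and 6.17 in vehicle rats 1, 2 and 3. The groups met without overlap at NTA rat 3 and vehicle rat 1. The difference was 0.29 (SE 0.14; limma, Benjamini-Hochberg adjusted p = 0.690). A second, dimmer Bgn probe did overlap, at 2.83, 1.97 and 1.31 in the NTA rats and at 1.58, 1.34 and 2.04 in the vehicle rats. Its difference was 0.39 (SE 0.39). Elastin (Eln) was at −0.86, −0.42 and −0.73 in the NTA rats and at −0.58, −0.56 and −0.20 in the vehicle rats, which overlapped. Its difference was −0.22 (SE 0.17; limma, Benjamini-Hochberg adjusted p = 0.803). A dimmer elastin probe, A_43_P15663, had all NTA rats below all vehicle rats, at −0.50 (SE 0.12), and the third probe was at −0.074. Decorin (Dcn), a related small proteoglycan, had the largest difference in size among the genes with unadjusted p over 0.05. It was 0.40, with an SE of 0.36 and overlapping groups. Fibrillin (Fbn1), the scaffold of microfibrils, was at 0.30 and fibronectin (Fn1), which hepatocytes also secrete into plasma, at −0.12. Of the other Fn1 probes, 1 was also at −0.12, and the dimmest had all NTA rats below all vehicle rats, at −0.21 (SE 0.11). Differences were −0.11 for Fbln1, −0.14 for Fbln5 and 0.076 for Sparc, a collagen-binding glycoprotein.

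The stellate cell markers and receptors had 6 tested genes of 7 listed, with a median difference of −0.098 and none past the test. Acta2, the smooth muscle actin that marks activated stellate cells, was at −1.86, −1.92 and −1.86 in NTA rats 1, 2 and 3, against −1.67, −1.86 and −1.59 in vehicle rats 1, 2 and 3. The NTA values lay below or within rounding of the lowest vehicle value, and the difference was −0.17 (SE 0.11, 95% interval −0.44 to 0.094; limma, Benjamini-Hochberg adjusted p = 0.766). Desmin (Des), the intermediate filament used to mark stellate cells in the rat, was at −2.47, −1.98 and −2.99 in the NTA rats and at −2.18, −2.65 and −2.25 in the vehicle rats. The NTA rats spanned the whole vehicle range, and the difference was −0.12 (SE 0.27). Reelin (Reln), a secreted glycoprotein of stellate cells, was at 2.25, 2.78 and 2.33 in the NTA rats and at 2.20, 2.27 and 2.22 in the vehicle rats. NTA rat 2 stood apart and NTA rat 1 lay inside the vehicle range, with a difference of 0.23 (SE 0.16).

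Pdgfra, a receptor for platelet-derived growth factor, was at 1.16, 1.46 and 1.54 in NTA rats 1, 2 and 3, against 1.02, 0.99 and 1.04 in vehicle rats 1, 2 and 3. The groups did not overlap, and the difference was 0.37 (SE 0.13; limma, Benjamini-Hochberg adjusted p = 0.593). On the first scan day alone it was 0.38. Its partner receptor Pdgfrb, the one more used as a stellate cell marker, had a difference of −0.15, and Tagln, an actin-binding protein of contractile cells, one of −0.076.

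Both growth factors were tested and neither passed. Hgf, a hepatocyte mitogen made by stellate cells, was at −1.45, −1.43 and −0.95 in NTA rats 1, 2 and 3, against −1.02, −1.09 and −1.24 in vehicle rats 1, 2 and 3. Tgfb1, the inducer of collagen synthesis in stellate cells, was at −2.26, −2.34 and −1.98 in the NTA rats and at −2.07, −2.46 and −2.59 in the vehicle rats. Each pair of groups overlapped. The differences were −0.16 (SE 0.17) for Hgf and 0.18 (SE 0.17) for Tgfb1 (limma, Benjamini-Hochberg adjusted p = 0.854 and 0.844).

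Genes around these proteins were read from 5 related lists, in none of which a gene passed the test. Counts at an unadjusted p under 0.05 are to be read against 7.57% of all features. Enzymes and chaperones of collagen maturation had 15 tested genes of 18 listed, a median difference of 0.053 and 1 gene at an unadjusted p under 0.05. Lowest in p were P3h2, a prolyl 3-hydroxylase of collagen, at 0.57 and Crtap, which forms a complex with the related enzyme P3h1, at −0.24. TGF-beta and PDGF signalling had 19 tested genes of 24, a median of 0.0081 and 2 genes at an unadjusted p under 0.05, both positive. They were the TGF-beta co-receptor Eng at 0.38 and the receptor Acvrl1 at 0.29, which endothelial cells carry. Neither list lay far from the median of all features.

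Further matrix proteases and inhibitors had 14 tested genes of 22, with a median of 0.24 and 12 above 0. Timp4 had the smallest p, at −5.37, −5.85 and −5.32 in NTA rats 1, 2 and 3, against −4.54, −4.57 and −4.61 in vehicle rats 1, 2 and 3. The groups did not overlap, and the difference was −0.94 (SE 0.16; limma, Benjamini-Hochberg adjusted p = 0.383). These NTA values were near background. Thy1, at −5.35, −7.04 and −5.34 in the NTA rats, was well above background on only 1 of those arrays. A gene stayed in if 1 group alone was well above background, so the size of the Timp4 difference is uncertain. The cysteine protease Ctsk, which cuts collagen, was at 0.47 (SE 0.12). Mmp3, Mmp7, Mmp8, Mmp10, Mmp11, Mmp12, Mmp13 and Adamts4 were not well above background. In the list of heparan sulfate and its carriers, the substrate side of heparanase, 15 of 18 genes were tested and the median was −0.011. The syndecans Sdc1 and Sdc3 had the smallest p, at −0.49 (SE 0.15) and 0.46 (SE 0.17). Matrix receptors had 8 tested genes of 16 and a median of 0.20, with the smallest p for the integrin chain Itga8, at 0.65, and the hyaluronan receptor Cd44, at 0.58.

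Markers of cell types that carry or surround the matrix were read in the same fit, and 0 genes of any list passed. Of the fibroblast-like cells, quiescent stellate cell markers had 13 tested of 14 and a median of 0.039, with the hedgehog-binding protein Hhip at 0.28. Portal fibroblast markers had 7 tested of 12 and a median of −0.0064, with Cd34 at −0.37 next to elastin, and Thy1 and Gli1 not well above background. Vascular smooth muscle markers had 4 tested of 8 and a median of −0.18, with Myh11 at −0.20 and Actg2 at −0.39, while Cnn1, Lmod1 and Casq2 were not well above background. The whole mesothelial list had a median of −0.77. None of these 4 lists had a summed signal that separated the groups, though Krt8 made up most of the mesothelial sum.

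Other cells of the sinusoid had positive medians. All 12 tested sinusoidal endothelium markers of 15 lay above 0, as did 43.9% of all features, with a median of 0.37. Of them 8 had an unadjusted p under 0.05, against 3.66% of all features in that direction, and Tie1 at 0.63 and Lyve1 at 0.54 had the smallest p. Their summed signal was 104 to 116 in NTA rats and 78.0 to 94.8 in vehicle rats, without overlap. Kupffer cell and macrophage markers had 9 tested of 10, all above 0, with a median of 0.41 and the smallest p for Marco at 1.27 and Msr1 at 0.44. Their summed signal was 96.7 to 193 in NTA rats and 59.8 to 142 in vehicle rats, with overlap. Of the 9, 1 (Marco) had an unadjusted p under 0.05, against 3.66% of all features in that direction. The list's mean log2 signal was 2.06, 1.77 and 2.65 in NTA rats 1, 2 and 3. In vehicle rats 1, 2 and 3 it was 2.10, 1.83 and 1.17. NTA rat 3 was thus the highest, and vehicle rat 3, with a slide and a scan day of its own, the lowest. Neutrophil markers had 3 tested of 7 and a median of 1.21, with S100a9 at 1.37, S100a8 at 1.21 and Camp at −0.078, and a summed signal of 2.73 to 5.11 in NTA rats and 1.57 to 2.62 in vehicle rats. The neutrophil genes Elane, Cxcr2 and Csf3r were not well above background.

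Cholangiocyte markers had 6 tested of 7 and a median of 0.089, with Krt7 at −0.25. All 8 hepatocyte markers were tested, with a median of −0.13 and the smallest p for Apoa1 at −0.35 and Alb at −0.21. Their summed signal was 3994 to 4197 in NTA rats and 4318 to 4814 in vehicle rats, without overlap. The part of these cell type signals in the Hpse, Loxl2, Pdgfra and Col4a1 values was not tested.

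**Figure D5:**
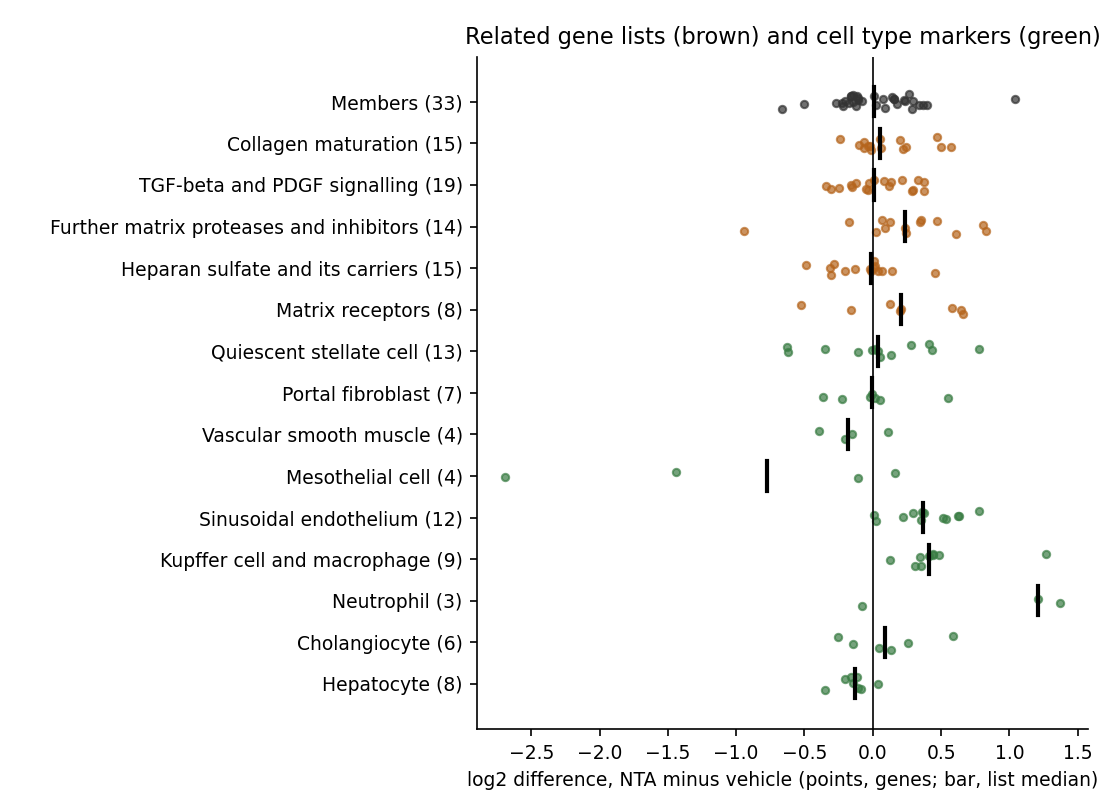
Log2 difference, NTA minus vehicle (x axis), of the tested genes in the matrix and stellate cell set (black), in 5 related lists (brown) and in 9 lists of cell type markers (green). Each point is a gene, the black bar is the list's median and the number of genes is in parentheses. The medians of the sinusoidal endothelium and Kupffer cell lists are 0.37 and 0.41, against 0.0072 for the set itself. In summed signal the NTA and vehicle rats overlapped for the Kupffer cell list.

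With 3 rats per group, the 95% interval of a difference extended by a median of 0.44 log2 units to either side among the 33 genes, and by 0.22 to 1.04 at the extremes. For the 28 genes with unadjusted p over 0.05, differences ran from −0.27 to 0.40. A p that misses the threshold does not show that NTA left these genes unchanged.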

How the data were processed

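Per the file headers, the deposited scanner files hold a linear processed signal per spot, an intensity with background subtracted, from Agilent Feature Extraction 10.7.1.1 (array design 035170, build rn4). The submitters' processing notes give the version as 10.7. The authors' deposited series table holds a ratio, that signal divided by the array's 75th percentile, and served as an alternative. Its column medians were 0.096, 0.1 and 0.0969 for NTA and 0.098, 0.0977 and 0.0987 for vehicle. On each array 100% of its 61657 probe values matched that ratio computed from the scanner files, so its scale and direction were known.

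Of 62976 spots, 61657 non-control probes were used. Values were log2 signal minus the array's 75th percentile. Probes flagged as non-uniform were set to missing, and a probe stayed in if 1 group or both had it well above background on all 3 arrays. Accessions matched the RefSeq table (GRCr8) for 27460 probes and not for 34197. Groups were compared in limma 3.58.1 (R 4.3.3), two-sided, with lmFit, eBayes (4 residual and 2.54 prior degrees of freedom) and Benjamini-Hochberg adjustment over all 30352 features. The fit was tested on simulated data with independent noise and no slide effect. That test checks the code and does not bear on the tie between treatment and slide. The smallest two-sided exact permutation p for 3 against 3 is 0.1, too large for use on single values. Precision is limited by the number of arrays.

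The genes and lists were chosen with earlier results of these data known. Rat-by-rat values are given for genes at an unadjusted p under 0.05, the 2 of each role group with the smallest p, and Col1a1, Col3a1, Col4a1, Acta2, Des, Reln, Hpse, Timp1 and Mmp2. Col6a2, Hgf and the genes of each list follow the same rule of smallest p, while Gpm6a, Msln and Timp4 are shown rat by rat, and Podxl, Krt8 and Camp are named, after their values were seen. Some list genes that this rule selects were tested but are not reported here. Alternatives changed the background correction (normexp, offset 50, on median spot signal, since the scanner files used here hold no mean signal), scaling, filter, probe choice, variance model, slide, scan day, replicate block, source table and the arrays included.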

Additional observations from a re-analysis of the deposited data

How the results depend on the processing

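None of the 33 matrix and stellate cell genes passed the adjusted threshold in limma under any of 17 alternatives. Over all features limma called 9, and 7 to 12 under the alternatives that kept every array and had no scan day or replicate block. Scan day as a block gave 6 calls. Vehicle rat 3 was alone on its scan day, so that fit is the same as leaving it out. Both are counted among the alternatives here and below. Leaving out 1 array gave 1 to 8 calls, with 1 without NTA replicate 2 and 4 without NTA replicate 1. Among the genes of the set, the count at an unadjusted p under 0.05 was 5, and 2 to 8 when 1 array was left out. Hpse kept its direction throughout, at 0.87 to 1.20, with limma Benjamini-Hochberg adjusted p of 0.10 to 0.63. Correlations of deviations from the group means were 0.17, −0.0066 and −0.075 for equal replicate numbers, and −0.15 to 0.15 for unequal ones. They are tied to one another within a group, so whether the numbers pair the rats could not be settled. The fit with the replicate block gave 0 calls over all features.

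Of 589 single-gene values under alternatives, 556 kept their sign and 33, in 12 genes, did not, none of them past the threshold. The cause was not tested. Many of the 556 are not separate checks. Fits with another variance model, the replicate block or another filter returned the main estimate of a gene, so its sign could not change. Those with slide as a random block or the authors' table stayed very close to it. With normexp Lamc1 was at −0.045 and Timp3 at −0.077. When the probes of each gene were averaged, Col1a1, Col6a2, Col4a1 and Lamc1 were at 0.011, −0.059, 0.41 and −0.085. With scan day as a block Fbln5 was at 0.010 and Tagln at 0.11. Other probes gave 0.14 and 0.051 for Col1a1, −0.12 for Col6a2, 0.61, 0.67 and 0.57 for Col4a1, and −0.051 and −0.23 for Lamc1. When 1 array was left out, values ran from −0.39 to 0.051 for Col1a2, −0.17 to 0.11 for Col6a2, −0.047 to 0.13 for Lamc1 and −0.28 to 0.13 for Fbln1. They ran from −0.65 to 0.21 for Fbln5, −0.098 to 0.26 for Sparc, −0.017 to 0.34 for Timp2 and −0.071 to 0.26 for Timp3, and from −0.25 to 0.11 for Tagln and −0.37 to 0.14 for Des. Of 153 role group medians under alternatives, which include those same fits, 3 moved by more than 1 SD, all of the basement membrane group. They were at 0.17 with averaged probes and 0.13 with scan day as a block or without vehicle replicate 3, which are the same fit.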
